A study of Mus musculus with 12 samples.

Results

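Cybb, Cyba, Ncf1 and Ncf4 encode subunits of the phagocyte NADPH oxidase. They were taken by symbol from the gene names joined to the deposited count table, and are 4 of its 37991 genes. RNA was sequenced from mouse bone marrow-derived dendritic cells (BMDCs, cells grown from marrow in culture) of the C57BL/6 strain. Each of 4 groups held 3 libraries. These were wild-type (WT) cells left unstimulated, WT cells given curdlan, cells labelled Vav1/2/3-/- left unstimulated, and cells labelled Vav1/2/3-/- given curdlan. Curdlan is a particulate beta-glucan that engages the receptor Dectin-1, and the label gives 3 hours for the stimulation. The Vav1/2/3-/- cells are written here as KO, after their labels. The sources used here give neither the exons removed from the 3 Vav genes nor the age and sex of the mice. No label says that libraries of a group came from separate animals, so p-values measure the spread between these libraries, which may be technical.

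The phagocyte oxidase moves electrons from cytosolic NADPH across a membrane to oxygen and makes superoxide, which is used against fungi and bacteria. Cybb encodes gp91phox (NOX2), the catalytic subunit, and Cyba encodes p22phox, its membrane partner; the pair form flavocytochrome b558. Ncf1 encodes p47phox, the organizer that is phosphorylated and docks on p22phox, and Ncf4 encodes p40phox, whose PX domain binds phosphatidylinositol 3-phosphate (PI3P) on phagosomes. The GTPase Rac must also be loaded with GTP, and Vav proteins are exchange factors that load it. In dendritic cells the oxidase is known for controlling the pH and proteolysis of the phagosome.

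In the GENCODE M21 annotation of the mouse genome build GRCm38, all 4 are protein-coding genes. No source used here gives the build of the authors' alignment. Cybb (ENSMUSG00000015340) lies on chromosome X at 9435252 to 9487771 on the minus strand, with 5808 bases of merged exons. Cyba (ENSMUSG00000006519) lies on chromosome 8 at 122424776 to 122432930, minus strand, with 1039 exon bases. Ncf1 (ENSMUSG00000015950) lies on chromosome 5 at 134220053 to 134229625, minus strand, with 3663 exon bases. Ncf4 (ENSMUSG00000071715) lies on chromosome 15 at 78244801 to 78262580, plus strand, with 2020 exon bases. Ncf1 exons share 408 bases (11.1% of its exon bases) with Gtf2ird2 on the other strand. The library kit does not mark strand, so reads in those bases cannot be assigned. All Gtf2ird2 counts in the 12 libraries came to 4.11% of those of Ncf1. That share does not show how many reads in the overlap were left out of both counts.

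The start regions are shown because the regulators described further on are known to act on phagocyte promoters. RefSeq promoters (GRCm38.p6) matched 3 of the 4 genes, without Ncf4. Each line gives the 100 bases before the RefSeq start, 5′ to 3′ on the gene's strand, with motif matches in capitals; the RefSeq start of Cybb lies inside the longer GENCODE gene.
Cybb, chrX:9469325-9469424, minus strand: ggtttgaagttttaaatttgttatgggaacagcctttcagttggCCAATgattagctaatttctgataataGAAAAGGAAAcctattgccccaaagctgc
Cyba, chr8:122432941-122433040, minus strand: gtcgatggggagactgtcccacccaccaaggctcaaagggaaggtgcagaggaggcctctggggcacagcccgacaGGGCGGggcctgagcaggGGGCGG
Ncf1, chr5:134229626-134229725, minus strand: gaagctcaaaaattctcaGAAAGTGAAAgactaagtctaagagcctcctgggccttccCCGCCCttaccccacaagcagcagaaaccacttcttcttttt

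Motifs were searched on both strands in 300 bases, 250 before and 50 after the start, and their shares were taken over 27025 promoters. The interferon regulatory factor element, GAAA repeated after any 2 bases and found in 3.49% of all promoters, matched Cybb 3 times, beginning 29 bases before the start on the gene's strand and 124 and 168 bases before it on the other strand, and Ncf1 once, 82 bases before it. The CCAAT box (37.9% of promoters) matched only Cybb of the 3, 56 bases before the start. The AP-1 site TGANTCA (7.93%) also matched Cybb alone, 139 bases before the start. GGGCGG (35.9%) matched Cyba 24 and 6 bases before the start and Ncf1, on the other strand, 42 bases before it. The PU.1 core GAGGAA (28.3%) matched Cybb 10 bases after the start on the other strand. Matches are letters in a window and show no binding.

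Library totals ran from 41421718 to 61217861 counts, and each member had between 6824 and 100886 counts in every library. Levels below are in CPM, counts relative to the library's total after scaling by the trimmed mean of M-values (TMM). The transcripts named in the KO label were not lower in unstimulated KO libraries. Vav2 stood at 67.3 ± 3.10 CPM (SD, n = 3) in WT and 282 ± 6.04 in KO unstimulated libraries. Vav1 stood at 133 ± 2.18 and 212 ± 18.1, and Vav3 at 26.3 ± 4.04 and 36.6 ± 4.52. With curdlan Vav1 and Vav2 were again higher in KO libraries. Vav3 was then at 32.6 ± 4.27 in WT and 28.5 ± 5.12 in KO libraries (-0.19 on the log2 scale, edgeR adjusted p = 0.315). Counts over a whole gene do not check a deletion whose exons are not given, and each genotype is therefore the one the library is labelled with. Each group was sequenced in a lane of its own (WT unstimulated lane 5, KO unstimulated 6, WT curdlan 7, KO curdlan 8), so lane and group cannot be told apart.

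All 4 members passed the filter on low counts that left 18981 genes for testing. By CPM averaged over the 12 libraries, Cybb ranked 49 of 18981 genes, Ncf1 175, Cyba 237 and Ncf4 1000. Per kilobase of exon the order changed: Cyba stood at 578 CPM per kb (rank 71 of 17588 genes with a length), Cybb at 267 (195), Ncf1 at 202 (271) and Ncf4 at 91.6 (670). Cyba was thus above Cybb per length in every group, with a ratio of 1.77 ± 0.130 (SD, n = 3) in WT curdlan and 2.59 ± 0.654 in KO curdlan libraries. Ncf4 was the lowest in all groups, at 0.273 ± 0.0150 of Cybb per length in WT curdlan and 0.407 ± 0.0579 in KO curdlan libraries. In bulk RNA, fewer cells of a type and less RNA per cell cannot be told apart.

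Cybb, the catalytic subunit, was at 1333, 1681 and 1564 CPM in WT unstimulated libraries 1, 2 and 4, and at 1720, 1829 and 1903 in WT curdlan libraries 1, 2 and 4. It was at 1525, 1157 and 1657 CPM in KO unstimulated libraries 1, 2 and 5, and at 1452, 1243 and 1567 in KO curdlan libraries 2, 4 and 5. WT curdlan was the highest group (1817 ± 92.1 CPM, SD, n = 3) and overlapped none of the others. WT unstimulated (1526 ± 177), KO unstimulated (1446 ± 259) and KO curdlan (1421 ± 164) overlapped one another.

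Cyba, the p22phox gene, was at 629, 593 and 532 CPM in WT unstimulated libraries and at 584, 581 and 557 in WT curdlan libraries, in the same library order. It was at 626, 601 and 564 CPM in KO unstimulated and at 605, 742 and 592 in KO curdlan libraries. Its group means stayed between 574 ± 14.4 (WT curdlan) and 647 ± 83.2 (KO curdlan), with WT unstimulated at 585 ± 49.2 and KO unstimulated at 597 ± 31.4. KO curdlan library 4, the lowest of its group for Cybb, was the highest of the 12 for Cyba. No KO curdlan library was as low as a WT curdlan one, while neighbours in the order of means overlapped.

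Ncf1, the p47phox organizer gene, was at 625, 587 and 646 CPM in WT unstimulated libraries and at 749.9, 722 and 739 in WT curdlan libraries. It was at 862, 757 and 966 CPM in KO unstimulated libraries and at 673, 719 and 825 in KO curdlan libraries. The order of means was KO unstimulated (862 ± 105), KO curdlan (739 ± 78.1), WT curdlan (737 ± 14.0) and WT unstimulated (619 ± 29.9). WT unstimulated lay below all other groups without overlap, KO unstimulated lay above WT curdlan without overlap, and the KO curdlan range covered that of WT curdlan.

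Ncf4, the p40phox gene, was at 179, 171 and 163 CPM in WT unstimulated libraries and at 174, 168 and 175 in WT curdlan libraries. It was at 187, 172 and 229 CPM in KO unstimulated libraries and at 172, 189 and 242 in KO curdlan libraries. The 4 groups overlapped, at 171 ± 8.05, 172 ± 3.34, 196 ± 29.5 and 201 ± 36.8 CPM. KO library 5 was the highest in both KO groups for Ncf4, Ncf1 and Cybb, and the lowest in both for Cyba.

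**Figure D1:**
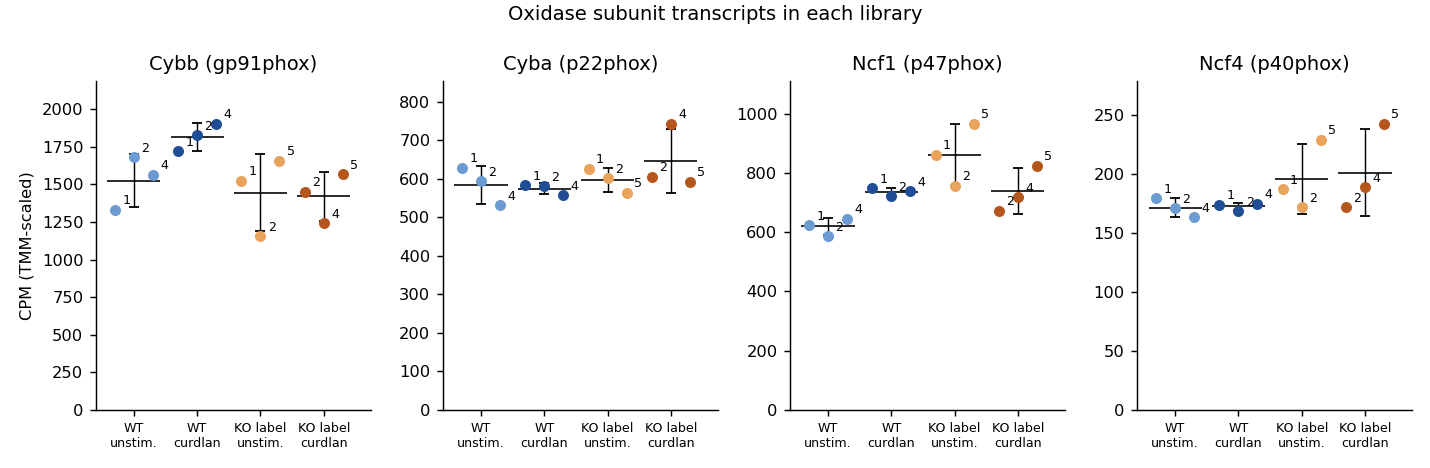
CPM of Cybb, Cyba, Ncf1 and Ncf4 (vertical axes, TMM-scaled CPM, each starting at 0) in the 12 libraries, by group; points are libraries with their label number, horizontal lines are group means and bars are 1 SD (n = 3). Ncf1 is lowest in the WT unstimulated libraries (587 to 646) and highest in the KO unstimulated ones (757 to 966), and Cybb is highest in the WT curdlan libraries (1720 to 1903).

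The first comparison asked how WT cells responded to curdlan. None of the 4 members passed the test there, beside 19.8% of the 18981 genes tested (11.4% higher, 8.4% lower). Cybb and Ncf1 had the larger values, a log2 fold change of 0.25 each (SE 0.14 and 0.10). Their adjusted p-values were 0.215 and 0.0957 in edgeR's quasi-likelihood fit, adjusted over all genes by the Benjamini-Hochberg method. For both genes every curdlan library was above every unstimulated one, and 44.5% of all genes had groups that did not overlap. Cyba (-0.03, 95% interval -0.23 to 0.18) and Ncf4 (0.01, -0.26 to 0.28) had values near 0. The median over the 4 members was 0.13, and over all genes tested -0.03. Libraries with the same label number within a genotype deviated together, and with that number as a block both values passed the edgeR test, Ncf1 at 0.25 (adjusted p = 0.00229) and Cybb at 0.26 (adjusted p = 0.0161). The deposited comparison table numbers the WT curdlan libraries in another order. With its numbers Ncf1 passed at 0.25 (edgeR adjusted p = 0.0185), while Cybb had 0.26 (adjusted p = 0.0748). Of all genes tested, 3759 passed without a block, 7276 with the first block and 4815 with the deposited numbering.

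In KO cells none of the 4 members passed the test of curdlan against unstimulated, beside 28.6% of all genes (14% higher, 14.6% lower). Ncf1 had a negative value, -0.22 on the log2 scale (SE 0.10, edgeR adjusted p = 0.114), with overlapping groups, as for all 4 members (38.1% of all genes had groups that did not overlap). Cybb stood at -0.03 (95% interval -0.32 to 0.27), Cyba at 0.12 (-0.09 to 0.32) and Ncf4 at 0.04 (-0.23 to 0.31). The members' median was 0.01, against -0.00 over all genes. With the block, in which KO cells have only numbers 2 and 5 in both states, Ncf1 fell by 0.20 on the log2 scale (edgeR adjusted p = 0.0326) and Cybb had 0.12 (adjusted p = 0.347). With the deposited numbering Ncf1 had -0.20 (adjusted p = 0.106), and with libraries scaled by totals alone, without a block, -0.42 (adjusted p = 0.00461). Without KO unstimulated library 2 the value of Ncf1 was -0.31 (adjusted p = 0.0393), and without KO curdlan library 5 it was -0.32 (adjusted p = 0.0421). Of all genes tested, 5425 passed in the main fit, 5625 with the block, 3622 with the deposited numbering and 7399 with totals alone.

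The responses of the genotypes were then compared directly, as the KO response minus the WT response. None of the 4 members passed, beside 5.21% of all genes (1.61% higher, 3.6% lower). The value for Ncf1 was -0.47 (SE 0.14, 95% interval -0.78 to -0.17, edgeR adjusted p = 0.0687), and 1478 of 18981 genes had a smaller p. With the replicate block within genotype Ncf1 passed at -0.45 (edgeR adjusted p = 0.00379), and with the deposited numbering at -0.45 (adjusted p = 0.0442). It also passed with libraries scaled by totals alone (-0.54, adjusted p = 0.0374). DESeq2's Wald test also called it, at -0.48 (adjusted p = 0.0117). Without KO unstimulated library 2 the edgeR value was -0.56 (adjusted p = 0.0355), and without KO curdlan library 5 it was -0.59 (adjusted p = 0.0305). Of all genes tested, 989 passed in the main fit, 2671 with the block and 682 with the deposited numbering. With totals alone 1321 passed, and by DESeq2 2166. Cybb stood at -0.28 (adjusted p = 0.390), with an interval from -0.70 to 0.14. Cyba had 0.14 (-0.15 to 0.44) and Ncf4 0.03 (-0.35 to 0.41).

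Unstimulated KO cells had more Ncf1 transcript than unstimulated WT cells. The log2 fold change was 0.48 (SE 0.10, edgeR adjusted p = 0.00186), 39.1% above WT, and the groups did not overlap, as for 56.1% of all genes. Ncf1 was the 1 of 4 members that passed, where 44.4% of all genes did (21.1% higher, 23.3% lower), so a call in this comparison is common. The value of Ncf1 stayed past the threshold in all 19 other fits, between 0.29 and 0.56, with the lowest value when libraries were scaled by their totals alone. Ncf4 had 0.19 (95% interval -0.08 to 0.46), Cybb -0.08 (-0.37 to 0.22) and Cyba 0.03 (-0.18 to 0.24), none past the test. The members' median was 0.11, against -0.01 over all genes. The authors' deposited table named as an interaction gives Ncf1 0.487 (adjusted p 1.28e-05), Cybb -0.0666, Cyba 0.0415 and Ncf4 0.204. Over the 18981 genes tested, 98.6% of its log2 fold changes lay within 0.1 of the unstimulated KO against WT contrast and 11.98% within 0.1 of the difference of responses, so its values are set here beside the former.

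With curdlan, KO cells had less Cybb transcript than WT cells, and the value of Ncf1 was 0.00. Cybb fell by 0.36 on the log2 scale (SE 0.14, edgeR adjusted p = 0.0442), that is by 21.8%, and the groups did not overlap, as for 56.9% of all genes. It was the 1 member of 4 that passed, beside 51.4% of all genes (24.7% higher, 26.8% lower). The call was lost without any 1 of WT unstimulated library 4, WT curdlan library 1, 2 or 4, and KO curdlan library 2 or 4. The largest loss came without KO curdlan library 4, at -0.27 (adjusted p = 0.141), and scaling by totals alone gave -0.60 (adjusted p = 0.0018). Cyba had 0.17 (SE 0.10, adjusted p = 0.153) with groups that did not overlap, but -0.07 when libraries were scaled by totals alone. Ncf4 had 0.22 (95% interval -0.05 to 0.49; -0.02 when scaled by totals alone), and passed at 0.32 (adjusted p = 0.04995) without KO curdlan library 2. The interval of Ncf1 ran from -0.21 to 0.22. The members' median was 0.09, against 0.01 over all genes. In the authors' deposited table of this contrast Cybb has -0.355 (adjusted p 0.00718), Cyba 0.167, Ncf1 0.000247 and Ncf4 0.213. This comparison shares its libraries with the curdlan comparisons, and the unstimulated one does too.

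**Figure D2:**
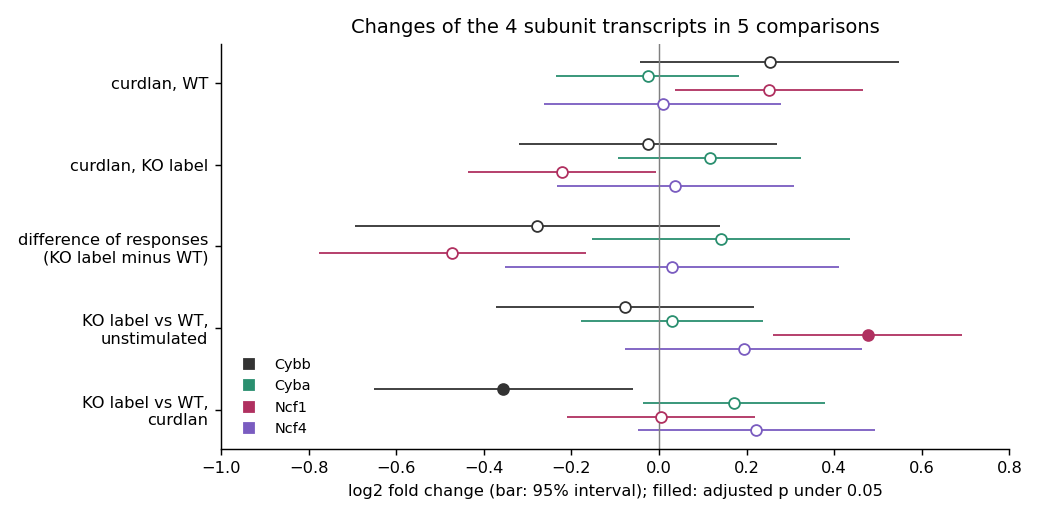
Log2 fold changes (horizontal axis) of the 4 members in the 5 comparisons, with 95% intervals as bars; filled points have an edgeR adjusted p under 0.05. The filled points are Ncf1 in unstimulated KO against WT (0.48) and Cybb in KO against WT with curdlan (-0.36); the interval of Ncf1 in the difference of responses runs from -0.78 to -0.17 with an open point.

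Because the subunits work as a complex, each was also set against Cybb within a library, as the log2 ratio of counts, which no library scaling changes. For Ncf1 the ratios were -1.09, -1.52 and -1.27 in WT unstimulated, -1.20, -1.34 and -1.36 in WT curdlan, -0.82, -0.61 and -0.78 in KO unstimulated and -1.11, -0.79 and -0.93 in KO curdlan libraries. All KO unstimulated ratios were above all WT ones, and KO curdlan overlapped WT unstimulated by 1 library. The share of all genes whose ratio to Cybb differs by genotype was not computed. In the edgeR tests 44.4% of all genes passed between genotypes unstimulated and 51.4% with curdlan. The 3 ratios also share Cybb, which was itself lower in KO cells with curdlan (-0.36). The mean difference, KO minus WT, was 0.46 (exact two-sided permutation test within curdlan state, p = 0.005, the smallest that its 400 permutations can give, adjusted p = 0.03 over 6 ratio tests). That test takes the 12 libraries as independent, although libraries of the same number within a genotype deviated together. When such libraries were kept together, as 3 WT and 4 KO numbers, the difference was 0.47 with an exact permutation p of 0.0286, the smallest its 35 exchanges can give, and an adjusted p of 0.171; this smaller design cannot pass the threshold after adjustment.

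For Ncf4 against Cybb the ratios were -2.89, -3.30 and -3.26 in WT unstimulated and -3.31, -3.44 and -3.45 in WT curdlan libraries. They were -3.03, -2.75 and -2.86 in KO unstimulated and -3.08, -2.72 and -2.69 in KO curdlan libraries. WT unstimulated library 1 lay among the KO values, and the other WT ratios lay below all of them. The mean difference was 0.42 (exact permutation p = 0.01, adjusted p = 0.03), and 0.41 with whole numbers exchanged (exact permutation p = 0.0571, adjusted p = 0.171). For Cyba the ratio to Cybb ran from -1.56 to -1.08 in WT unstimulated, -1.77 to -1.56 in WT curdlan, -1.56 to -0.94 in KO unstimulated and -1.40 to -0.74 in KO curdlan libraries. Its difference of 0.32 did not pass (exact permutation p = 0.075, adjusted p = 0.15).

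Within curdlan states the KO minus WT difference of Ncf1 to Cybb was 0.56 unstimulated and 0.36 with curdlan. That of Ncf4 to Cybb was 0.27 and 0.57, and that of Cyba to Cybb 0.12 and 0.53. By curdlan state no ratio passed: the differences were -0.10 for Ncf1 (exact permutation adjusted p = 0.39), -0.10 for Ncf4 (0.438) and -0.08 for Cyba (0.66). The Ncf1 call was at an adjusted p of 0.06 without WT curdlan library 1, 2 or 4. The Ncf4 call reached 0.06 without WT unstimulated library 2 or 4 or WT curdlan library 1, and 0.075 without WT curdlan library 2 or 4. Cyba passed without WT unstimulated library 1 (0.40, adjusted p = 0.04).

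**Figure D3:**
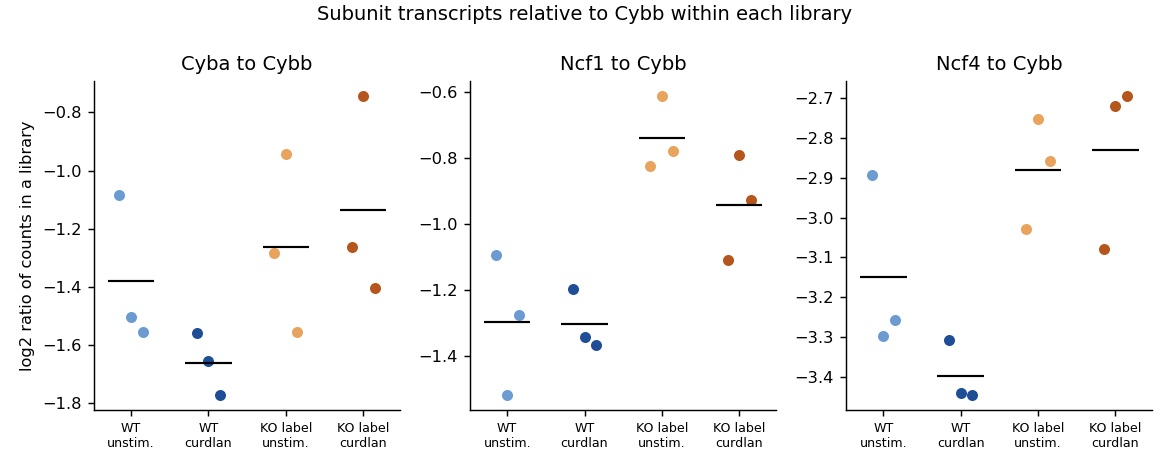
Log2 ratio of the counts of Cyba, Ncf1 and Ncf4 to those of Cybb (vertical axes, each with its own range) in the 12 libraries; points are libraries in the order of their label numbers and lines are group means (n = 3). For Ncf1 the 3 KO unstimulated ratios (-0.82 to -0.61) lie above the 6 WT ratios (-1.52 to -1.09).

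Over the 12 libraries the log2 CPM of Ncf1 and Ncf4 correlated at a Pearson r of 0.70, and those of Cybb and Cyba at -0.62. The other 4 pairs lay between -0.06 and 0.10. These correlations describe libraries that share 4 groups and 4 lanes and carry no test. Among the 6984 genes whose log2 CPM averaged 4 or more, the patterns most like Cybb were those of Tecpr2 (r = 0.950), Hcls1 (0.939) and Arfgef1 (0.908). Those most like Cyba were Bccip (0.928), Romo1 (0.910) and Ap5z1 (0.910). Those most like Ncf1 were Irak3 (0.926), a negative regulator of Toll-like receptor signalling, Cdc42ep2 (0.926) and Kdm5b (0.924). Those most like Ncf4 were Rbpms (0.948), Tmem63a (0.926) and Klf2 (0.926).

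Marker lists of the cell types a marrow culture can hold moved with the genotype label beside these member values. In unstimulated KO against WT, 12 of 14 neutrophil markers were higher, and their summed level was 8075 to 11984 CPM in KO and 5331 to 6641 in WT. Of 12 macrophage markers 9 were higher (6064 to 7224 against 2060 to 2168), of 8 mast cell and basophil markers all 8 (173 to 339 against 42.9 to 52.6), and of 8 monocyte markers 5 were higher (2 to 6 with 1 library left out) and 1 lower, where 21.1% of all genes were higher and 23.3% lower. Of 14 conventional dendritic cell markers 5 were higher and 4 lower, with sums of 17523 to 22292 against 10541 to 10742 CPM. Itgax (CD11c), the marker by which such cultures are usually gated, was lower, at 788 CPM in KO and 1488 in WT libraries, and H2-Ab1, an MHC class II gene, was higher, at 1875 and 734. All 6 B cell markers were lower, at sums of 1.33 to 1.74 against 33.1 to 41.5 CPM. Of 5 eosinophil markers 1 was higher and 2 lower (33.0 to 109.5 against 67.5 to 108 CPM). T and NK cell markers summed to 3.52 to 5.97 CPM in KO and 4.68 to 5.97 in WT, 4 of 8 could be tested, and Gzma had no read in any library.

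With curdlan the KO libraries again had 11 of 14 neutrophil, 9 of 12 macrophage and 8 of 8 mast cell and basophil markers higher than WT, with 1 macrophage marker lower. Monocyte markers had 2 of 8 higher and 1 lower there, conventional dendritic cell markers 5 of 14 higher and 5 lower, and all 6 B cell markers were lower. Of all genes 24.7% were higher and 26.8% lower in that comparison, and the 2 of 8 monocyte markers were close to the first share. Neutrophils, macrophages and monocytes also carry the phagocyte oxidase, and the part of the cell makeup in the Ncf1 and Cybb values was not tested. Between curdlan states the neutrophil list had 1 of 14 markers lower in WT and 4 of 14 lower in KO cells (8.4% and 14.6% of all genes). The TMM factors also followed the groups, from 1.113 to 1.145 in WT unstimulated to 0.863 to 0.871 in KO curdlan libraries.

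The proteins that work beside the 4 subunits were read as lists, each described by its counts of genes past the edgeR threshold. These counts are read beside the shares of all genes given above for each comparison, and nothing is taken from them as particular to a list. Among 8 oxidase partners, 2 rose with curdlan in WT cells and 1 in KO cells (11.4% and 14% of all genes), each count being 1 to 2 with 1 library left out. In unstimulated KO against WT 3 were higher (21.1% of all genes) and none lower. Nrros, a negative regulator of reactive oxygen species that acts on gp91phox stability, stood at 206 ± 9.12 and 350 ± 6.07 CPM (SD, n = 3) in WT unstimulated and curdlan libraries. In KO libraries Nrros stood at 359 ± 15.02 and 387 ± 69.0 CPM. Nrros rose by 0.77 with curdlan in WT (edgeR adjusted p = 0.000367) and was 0.80 higher in unstimulated KO cells (adjusted p = 7.37e-05). Hvcn1, the voltage-gated proton channel that balances the charge of electron transport, was lower in KO than in WT with curdlan (-0.45, adjusted p = 0.0115). Rap1a, a GTPase that copurifies with the flavocytochrome, rose with curdlan in KO cells (0.43, adjusted p = 0.0012). Rap1a was also higher in KO than in WT with curdlan (0.56, adjusted p = 6.93e-05). Rac1 was 0.27 higher in KO cells with curdlan (adjusted p = 0.0058), a call lost when scaled by totals alone. Rac2 passed in no comparison and stood between 448 ± 1.89 and 506 ± 99.8 CPM.

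Other NADPH oxidases were at or near 0. Of 9 genes of Nox1, Nox3, Nox4, the Duox pair and their partners, 7 failed the filter and Nox3 had no read. Nox4 and Noxo1 were tested and passed in no comparison, with Nox4 at 0.957 ± 0.00816 CPM in WT unstimulated libraries and Noxo1 at 0.244 ± 0.0239.

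Kinases that phosphorylate the cytosolic subunits, 10 genes, had no member that rose with curdlan, while 3 fell in WT and 5 in KO cells (1 to 3 and 2 to 5 when 1 library was left out), where 8.4% and 14.6% of all genes fell. Mapk14, p38 alpha, fell by 0.86 on the log2 scale in KO cells (edgeR adjusted p = 0.000418) and Pak1, a Rac effector, fell by 0.61 in WT cells (adjusted p = 0.00034). In KO against WT with curdlan 5 were lower (2 to 5 with 1 library left out; 26.8% of all genes) and 1 higher (24.7%). The one higher was Mapk3, ERK1 (0.60, adjusted p = 1.08e-05), and Prkca was among the lower ones (-0.40, adjusted p = 0.0013). Of 7 genes that make or turn over PI3P, the lipid that p40phox binds, 4 fell and none rose with curdlan in KO cells (14.6% of all genes fell). In WT cells 1 rose and 1 fell, the fall being lost in fits without 1 library (0 to 1). In KO against WT with curdlan 6 were lower and 1 higher (26.8% and 24.7% of all genes). Pik3c3, the VPS34 kinase, was lower there by 0.67 (adjusted p = 0.000203) and its partner Pik3r4 by 0.61 (adjusted p = 0.000818). Rubcn, which links VPS34 and the oxidase in LC3-associated phagocytosis, was lower by 0.56 (adjusted p = 0.000203). Becn1, chosen after its values were seen, was the 1 that was higher (0.25, adjusted p = 0.00639), a call lost when scaled by totals alone.

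Of 11 Rac exchange factors and Rac GTPase-activating proteins, 5 were higher and 2 lower in unstimulated KO cells (21.1% and 23.3% of all genes). Vav2 had the largest value (2.07, edgeR adjusted p = 7.45e-09), and Dock2, the hematopoietic Rac exchange factor, was lower (-0.64, adjusted p = 0.001). Vav1 rose with curdlan by 0.42 in WT (adjusted p = 0.0127) and by 0.38 in KO cells (adjusted p = 0.016), calls lost in 1 and 3 of 12 fits that left out a library, and both lost when scaled by totals alone. Arhgap25, a phagocyte Rac GTPase-activating protein, rose with curdlan in KO cells (0.62, adjusted p = 0.000527), from 63.5 ± 8.98 to 97.5 ± 7.76 CPM. In WT cells Arhgap25 stood at 90.3 ± 1.88 and 88.3 ± 2.29 CPM.

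Transcription factors known to act on oxidase genes, 11 in all, included 3 that rose and none that fell with curdlan in WT cells (11.4% and 8.4% of all genes). In KO cells 5 rose and 2 fell (14% and 14.6% of all genes). Of the 11, 6 were higher in unstimulated KO than WT cells (3 to 7 with 1 library left out; 21.1% of all genes). Irf1 stood at 102 ± 9.01 CPM in WT unstimulated and 202 ± 34.4 in WT curdlan libraries, and at 486 ± 68.8 and 906 ± 127 in the KO groups. The rise of Irf1 with curdlan was 0.98 in WT (edgeR adjusted p = 0.000548) and 0.90 in KO cells (adjusted p = 0.000745). Irf8 rose by 0.50 and 0.43, and Rela, an NF-kappaB subunit, by 0.56 and 0.42, the latter not past the threshold when scaled by totals alone. Spi1, which encodes PU.1, was higher in KO cells by 0.66 unstimulated (adjusted p = 1.63e-05) and 0.43 with curdlan (adjusted p = 0.000353). Crebbp, a coactivator, fell with curdlan in KO cells (-0.57, adjusted p = 0.0111).

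Of 7 genes that handle superoxide and peroxide, 3 were higher and 3 lower in unstimulated KO than WT cells (3 and 1 to 3 with 1 library left out; 21.1% and 23.3% of all genes). Mpo, the neutrophil myeloperoxidase, was higher by 1.63 (edgeR adjusted p = 0.000869), from 33.2 ± 8.09 to 103 ± 47.3 CPM, beside the neutrophil markers above. Sod3 was higher by 1.11 from a low level (0.550 ± 0.118 CPM in WT), and Sod2, the mitochondrial dismutase, by 1.00 (adjusted p = 0.000215). Catalase, Cat, was lower (-0.34, adjusted p = 0.0245), and Prdx6 too (-0.32, adjusted p = 0.00496). With curdlan, Sod2 rose in WT cells (0.60, adjusted p = 0.016) and Prdx6 in KO cells (0.28, adjusted p = 0.0181; not called when scaled by totals alone). These calls were lost in 2 and 3 of 12 fits that left out a library, and that of Cat in 4.

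**Figure D4:**
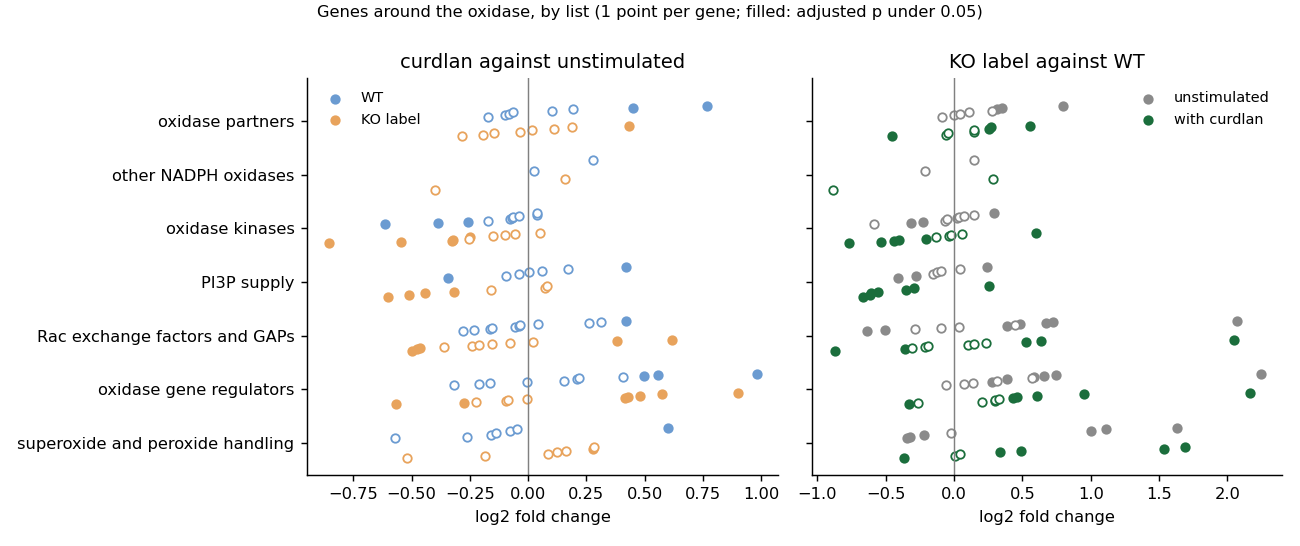
Log2 fold changes (horizontal axes) of the tested genes of 7 lists around the oxidase, 1 point per gene, for curdlan against unstimulated (left, WT and KO) and for KO against WT (right, unstimulated and with curdlan); filled points have an edgeR adjusted p under 0.05. Filled points of the kinase list lie below 0 in the left panel, and Vav2 and Irf1 lie near 2 in the right panel.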

How the data were processed

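RNA of 12 mouse BMDC libraries was prepared with the TruSeq RNA kit v2, which does not mark strand, and sequenced, per the labels. Read counts per gene are those the authors deposited, made with TopHat2 (2.4.2a) and featureCounts (1.4.6), per the submitters' processing notes; no source used here gives the build or the strand setting. Also deposited by the authors were 2 tables of log2 fold changes with p-values, made with DESeq2 (1.8.2) per those notes; these were copied, and their 24 per-sample columns were not used. The test of counts was edgeR's (version 4.0.16; quasi-likelihood F, libraries scaled by TMM, genes kept by filterByExpr with the groups) in R 4.3.3; a single model took the 12 libraries, with a mean for each of the 4 groups. Each of 5 comparisons was adjusted by Benjamini-Hochberg over 18981 genes, threshold 0.05. The fit was tested on simulated data. Alternatives were other scalings, no filter, only the groups compared, leaving out each library, replicate blocks and DESeq2 1.42.0; the block with the deposited numbering, the exchange of whole numbers for the ratios and leaving out libraries for the lists were added after seeing the data. Ratios to Cybb were tested by exact permutation. Within genotype, libraries of the same number correlated in their deviations from group means (0.129 to 0.395 in 3 WT pairs, 0.287 and 0.557 in 2 KO pairs). Pairs of different numbers ran from -0.290 to 0.082 in WT and from -0.470 to 0.246 in KO cells. The number was therefore taken to pair libraries within genotype, although the lowest WT pair lay below the highest KO pair of different numbers. Sample titles instead pair KO unstimulated libraries 1, 2 and 5 with KO curdlan libraries 2, 4 and 5, in that order. Those pairs correlated at 0.217, 0.246 and 0.557, and a block by the titles was not run. Across genotypes 8 pairs of the same number ran from -0.15 to 0.19. Replicates differed by 9.86 to 83.9 chi-square units per degree of freedom, more than counting error gives, so none was counted as a library deposited again. The members and lists were chosen with earlier results of these data known. Beyond the members, up to 6 genes per list were named by size of change among those past the threshold, with members at or near 0, the 3 Vav genes, and the 3 genes most like each member. A further gene of the oxidase-partner list is not reported here.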

Additional observations from a re-analysis of the deposited data

Results flagged for a closer look

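In 3 genes of the 7 lists around the oxidase the response to curdlan differed between the genotypes by a test of the difference itself. For 1 of the subunits, Ncf1, it did so only in some alternative fits. The 3 genes were 2 of 8 oxidase partners and 1 of 11 Rac exchange factors and GTPase-activating proteins. No gene passed among 2 other NADPH oxidases, 10 kinases, 7 PI3P genes, 11 transcription factors and 7 superoxide and peroxide genes. As 5.21% of all genes passed, the counts are not read as particular to a list. Of the markers, 1 of 14 neutrophil ones passed as lower, 1 of 12 macrophage and 1 of 8 monocyte ones as higher, and no other. The response of Nrros was lower in KO than in WT cells by 0.66 on the log2 scale (value -0.66, edgeR adjusted p = 0.0285), and the call was lost in 9 of 12 fits that left out 1 library (highest adjusted p = 0.0810). That of Hvcn1 was -0.73 (edgeR adjusted p = 0.0419), also lost in 9 of 12 such fits (highest adjusted p = 0.123). That of Arhgap25 was 0.65 (edgeR adjusted p = 0.0177), lost only without WT unstimulated library 1 (adjusted p = 0.0538). For Ncf1 the difference did not pass the main test (-0.47, edgeR adjusted p = 0.0687). It passed at -0.45 (edgeR adjusted p = 0.00379) with the replicate number within genotype as a block. The cause was not tested for any of them. In this comparison 5.21% of all genes (989) passed without the block, and 2671 genes passed with it.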

How the results depend on the processing

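Higher Ncf1 in unstimulated KO than WT cells kept its call in all 19 alternatives. Counts of genes past the threshold moved by over 1.5 times in these fits: curdlan in WT gave 6123 with libraries scaled by totals alone and 7276 with the replicate block within genotype (main 3759); curdlan in KO gave 3142 with only the groups compared (main 5425); the difference of responses gave 2671 with the replicate block within genotype, 2002 with the block across genotypes and 2166 by DESeq2 (main 989). Leaving out 1 library gave 2170 to 4216 genes for curdlan in WT, 3490 to 6074 in KO and 366 to 2837 for the difference. Scaling by totals alone shifted the median of all genes to -0.17, -0.20, -0.06, -0.19 and -0.24 in the 5 comparisons in report order. It moved the share of calls that were higher from 57.6%, 49.0%, 30.8%, 47.5% and 48.0% to 25.1%, 17.9%, 15.7%, 26.4% and 23.7%; upper-quartile factors gave 46.3% for curdlan in WT and 41.97% for the difference.

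The number was taken to pair libraries within genotype only. With the replicate block within genotype Cybb (0.26) and Ncf1 (0.25) passed for curdlan in WT, Ncf1 passed in KO (-0.20) and in the difference (-0.45), and Cybb in KO changed sign (0.12); with the deposited numbering these were Ncf1 0.25 in WT and -0.45 in the difference, and Cybb 0.12 in KO. This block, run for the 3 curdlan comparisons because numbers lie within a genotype, changed no other call of the 4 members there. With whole numbers exchanged as a block, the ratio by genotype was 0.47 for Ncf1 and 0.41 for Ncf4, both short of the threshold (adjusted p = 0.171), which that design cannot pass. The block across genotypes, where numbers do not pair the libraries, gave Ncf1 0.25, -0.22 and -0.47 past the threshold in the same 3 comparisons and -0.067 in KO against WT with curdlan. With only the groups compared Cybb (0.27) and Ncf1 (0.27) passed for curdlan in WT, and Ncf1 in KO against WT with curdlan was -0.00022. Without the filter the latter was -0.014. DESeq2 called the Ncf1 difference (-0.48). Upper-quartile factors turned Ncf4 in WT to -0.032 and Cyba in unstimulated KO against WT to -0.0036. Scaling by totals alone turned Ncf4 in WT (-0.13), in KO (-0.16), in the difference (-0.036) and in KO against WT with curdlan (-0.024). It turned Cyba in KO (-0.083) and in KO against WT unstimulated (-0.15) and with curdlan (-0.074), and Ncf1 in the last (-0.24). It called Ncf1 in KO (-0.42) and in the difference (-0.54). The cause was not tested.

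Leaving out 1 library at a time changed a sign or a call within these ranges: for curdlan in WT, Cyba -0.090 to 0.030, Ncf1 0.21 to 0.28 and Ncf4 -0.025 to 0.043; in KO, Cybb -0.16 to 0.084, Ncf1 -0.32 to -0.13 and Ncf4 -0.13 to 0.16; in the difference, Ncf1 -0.59 to -0.38 and Ncf4 -0.16 to 0.15. Unstimulated KO against WT gave Cybb -0.19 to 0.060 and Cyba -0.036 to 0.084. With curdlan KO against WT gave Cybb -0.43 to -0.27, Ncf1 -0.083 to 0.060 and Ncf4 0.065 to 0.32. The ratio by genotype ran from 0.22 to 0.40 for Cyba, 0.40 to 0.51 for Ncf1 and 0.38 to 0.48 for Ncf4, and that of Cyba by curdlan from -0.18 to 0.0014. Fits without a library rest on groups of 2 libraries. Ratios per length to Cybb moved beyond 1 SD with the longest transcript as the length: Cyba in WT curdlan to 2.02, Ncf4 in WT curdlan to 0.308 and in KO unstimulated to 0.443. Members had at least 6824 counts, so counting error is small beside the spread between libraries.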
